A study of Sorghum bicolor with 14 samples.

Results

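The sucrose synthase family was followed through stem development and progressive drought in sweet sorghum (Sorghum bicolor), a cereal that stores sucrose in its stem juice. The 5 genes came from a list of identifiers, chosen with earlier results of these data known. All 5 were found by name in the deposited table, whatever their levels. They are Sobic.010G072300, Sobic.001G344500, Sobic.001G378300, Sobic.010G276700 and Sobic.004G357600, and each had a row of its own among 32752 named rows for development and 32726 for drought. The list calls them sucrose synthases, and the table itself gives no gene function. Of the 5 genes, 3 reached 1 FPKM, in the stages as in the drought columns, and 2 stayed below it in all 7 columns. FPKM is the number of sequenced fragments per kilobase of gene and per 1000000 mapped fragments, so levels can be compared between genes.

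Sucrose synthase splits sucrose reversibly with UDP into fructose and UDP-glucose. UDP-glucose is the substrate of cellulose and callose synthesis and a source for starch, so in plants the enzyme links imported sucrose with cell wall building and storage. Sucrose is also split by invertases, irreversibly, into glucose and fructose, and it is made by sucrose phosphate synthase with a phosphatase. In grass stems, growing internodes consume imported sucrose, while mature internodes of sugar-storing types accumulate it.

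All plants were of the variety CSV24SS, and RNA came from the middle internode of the stem. In the drought series, plants grew 1 to a pot, water was withheld from the flag leaf stage on, and booting stems were harvested at soil moisture readings of about 13% (D1), 7% (D2) and 2% (D3). In the development series, plants grew in a nitrogen-fertilised, regularly watered soil bed and were harvested at floral initiation (FI), booting (B), the milky stage (MS) and soft dough (SD), the last 2 being stages of grain filling. The labels list 14 samples, 2 for each of the 7 groups, and the authors' table gives 1 value per gene and group. No spread between replicates can be had from such values, so there is no test below, and higher and lower compare 2 values. There are no watered pots, and dry soil cannot be told apart from a longer time without water. In a whole internode, fewer cells that express a gene and less of its RNA per cell cannot be told apart.

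Genes known from published work in sorghum stems were read as a check of the labelled tissue. Genes of other tissues were not read, so the presence of other tissue in the samples was not tested. The dry-stalk NAC gene Sobic.006G147400, which separates pithy from juicy stems, lay between 8.53 and 158 FPKM over the 7 columns, and the SWEET sugar exporter gene Sobic.008G094000 between 44.8 and 219 FPKM. Of the cellulose synthase genes, Sobic.002G118700 lay between 27.6 and 570 FPKM, Sobic.003G296400 between 0.354 and 62.7, and Sobic.001G224300 between 0.0922 and 30.3. Sobic.003G296400 and Sobic.001G224300 were lowest in D2. The table gives no read counts, so depth is unknown, and summed FPKM per column ran from 688376 in D1 to 829722 in D2.

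The 3 expressed genes stood at different levels, and 1 of them made up most of the family in every column. Sobic.010G072300 (chromosome 10, 5859073 to 5867276 in the table's coordinates, genome build not given) was the most abundant. It was at 1242 FPKM at FI, 818 at B, 371 at MS and 441 at SD, and at 559 in D1, 630 in D2 and 679 in D3. It was highest at the first stage and lowest at the milky stage, and the 3 drought values lay between those of SD and B. Among 18338 genes that reached 1 FPKM in a stage, it ranked 49th from the top in FI, 88th in B, 276th in MS and 236th in SD. Among 16801 genes of the drought columns it ranked 132nd, 161st and 121st in D1, D2 and D3. The median gene of these columns was at 9.17 to 12.1 FPKM. Here and below, stage levels come from a soil bed and drought levels from pots, in tables taken as normalised separately. An order of levels across the tables cannot be told apart from these differences.

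Sobic.001G344500 (chromosome 1, 63320871 to 63327577) was second in the 4 stages. Its levels were 388 FPKM at FI, 110 at B, 74.5 at MS and 119 at SD, and in drought 66.8 for D1, 80.5 for D2 and 60.9 for D3. Floral initiation stood apart from all other columns, which lay between 60.9 and 119 FPKM. The FI value was at least 2-fold above each other stage on the log2(FPKM + 1) scale, a pattern shared by 9.10% of measured genes.

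Sobic.001G378300 (chromosome 1, 66642502 to 66650446) had another profile. It was at 16.0 FPKM at FI, 20.7 at B, 71.1 at MS and 21.9 at SD, and at 60.9 in D1, 109 in D2 and 87.0 in D3. The milky stage was its high point in development, and FI, B and SD lay close together. All 3 drought values, from pots and a separate table, exceeded those of FI, B and SD, and D2 and D3 also exceeded MS. An MS value at least 2-fold above each other stage was found for 97 of 18338 genes (0.529%). This profile was selected for description after the values were seen. In D2 and D3 the gene was above Sobic.001G344500, at 109 against 80.5 FPKM and at 87.0 against 60.9 FPKM, while at MS and D1 the 2 genes were close, at 71.1 and 74.5 FPKM and at 60.9 and 66.8 FPKM. At FI the level of Sobic.001G344500 was 24.3 times that of Sobic.001G378300. Without replicate values it cannot be said which of these neighbouring levels differ beyond their spread.

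The 2 remaining genes were listed near 0. Sobic.010G276700 (chromosome 10, 60979153 to 60983631) lay between 0.0290 and 0.0964 FPKM in the stages and between 0.0585 and 0.0945 in drought. Sobic.004G357600 (chromosome 4) lay between 0.0106 and 0.0497 FPKM in the stages and between 0.117 and 0.135 in drought. Its locus spans 68444058 to 68459221 in the development table and starts at 68443942 in the drought table. A row for Sobic.004G357500 and Sobic.004G357700 overlaps this locus and was at 10.7 to 32.3 FPKM, so the split of reads there is uncertain. The 3 expressed genes overlapped 0 other rows. How far reads of similar sucrose synthase genes could have been assigned to each other was not tested, since no gene sequences were used here. No fold is given for the 2 low genes, whose depth is unknown.

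**Figure D1:**
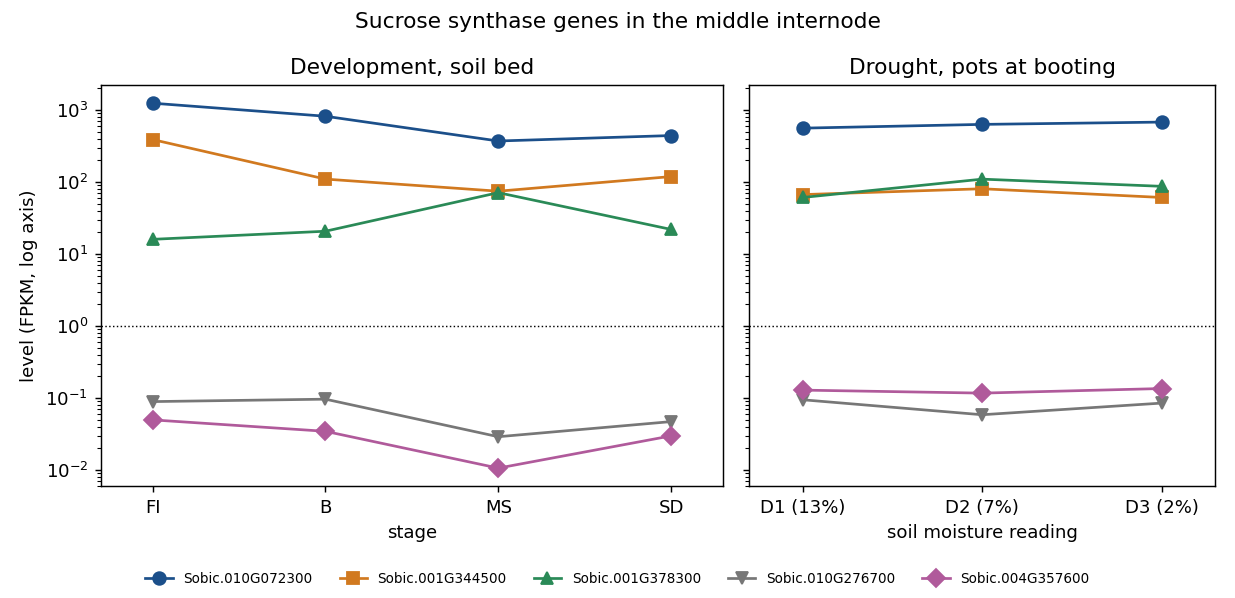
Levels of the 5 sucrose synthase genes in FPKM on a log axis, with 1 deposited value per gene and group, for the 4 stages (left) and the 3 soil moisture readings (right); the dotted line marks 1 FPKM. Sobic.010G072300 is the top line throughout, Sobic.001G378300 meets Sobic.001G344500 at MS and D1 and lies above it in D2 and D3, and 2 genes lie below 0.14 FPKM in all columns.

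Summed over the 5 genes, the family level was 1647 FPKM at FI, 949 at B, 516 at MS and 582 at SD. In the drought columns it was 687 in D1, 821 in D2 and 827 in D3. The sum was therefore highest at the first stage and lowest at the milky stage, and the drought columns lay between SD and B. As a share of all FPKM in its column, the family held 0.216% at FI, 0.131% at B, 0.0723% at MS and 0.0766% at SD. It held 0.0998% in D1, 0.0989% in D2 and 0.105% in D3. These shares show the same order among the stages and hardly any difference among the drought columns. The stage totals include rows without a gene name, which the drought columns lack.

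Sobic.010G072300 contributed 75.4% of the family sum at FI, 86.2% at B, 71.8% at MS and 75.8% at SD. Its share was 81.4% in D1, 76.8% in D2 and 82.1% in D3. The second largest contributor changed between columns. Sobic.001G344500 held 23.6% at FI, 11.6% at B, 14.4% at MS and 20.4% at SD, and 9.72%, 9.81% and 7.37% in D1, D2 and D3. Sobic.001G378300 held 0.970% at FI, 2.18% at B, 13.8% at MS and 3.77% at SD, and 8.87%, 13.3% and 10.5% in D1, D2 and D3. The composition at the milky stage thus had both minor genes at nearly equal shares, and in D2 and D3 Sobic.001G378300 was the larger of the 2.

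**Figure D2:**
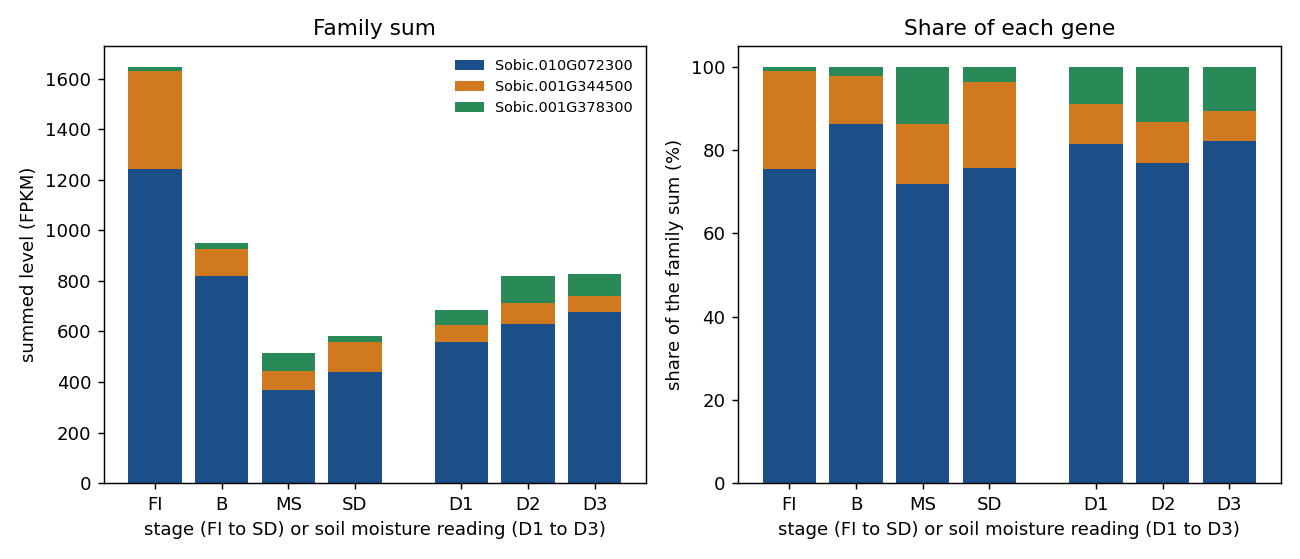
Summed level of the sucrose synthase genes in FPKM (left) and the percent share of each gene in that sum (right), for stages FI to SD and soil moisture readings D1 to D3; colours mark the 3 expressed genes, and the other 2 are too low to be visible. The sum is 1647 FPKM in FI and 516 in MS, and the share of Sobic.001G378300 is 13.8% in MS and 13.3% in D2 against 0.970% in FI.

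Comparisons used the difference in log2(FPKM + 1), later stage minus earlier, drier reading minus wetter and drought minus booting. A gene was counted as different when this difference was at least 1 in size, that is 2-fold. Such a count describes 2 values and is no test. Ratios are of the FPKM values.

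At booting compared with floral initiation, 1 of the 3 expressed sucrose synthases was past 2-fold, where 26.8% of all measured genes were. Sobic.001G344500 was 3.54-fold lower, at 110 FPKM in B against 388 in FI. Sobic.010G072300 was 1.52-fold lower and Sobic.001G378300 was 1.30-fold higher, both within 2-fold. In FPKM the larger difference was that of Sobic.010G072300, lower by 424.0, with Sobic.001G344500 lower by 278.8 and the family sum at 949 in B against 1647 in FI.

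Between MS and B, 2 of 3 sucrose synthases were past 2-fold, in opposite directions, against 14.2% of all genes. Sobic.001G378300 was 3.43-fold higher, at 71.1 FPKM in MS against 20.7 in B, and 97.1% of genes had a smaller or more negative change. Sobic.010G072300 was 2.21-fold lower, with a log2 difference of -1.14, and 5.21% of genes had a more negative one. Sobic.001G344500 was 1.47-fold lower.

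Between SD and MS, Sobic.001G378300 was the 1 gene of 3 past 2-fold, where 10.7% of all genes were. It was at 21.9 FPKM in SD against 71.1 in MS, a log2 difference of -1.65, and 0.938% of genes had a more negative one. Sobic.001G344500 was 1.60-fold higher in SD and Sobic.010G072300 1.19-fold higher. The dip of these 2 genes and the peak of Sobic.001G378300 thus fell in the same column, MS.

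Over the longer intervals, all 3 genes were past 2-fold between MS and FI, against 25.6% of all genes. Sobic.001G344500 was 5.22-fold lower in MS, Sobic.010G072300 3.35-fold lower and Sobic.001G378300 4.45-fold higher. The family sum was 3.19-fold lower. Between SD and FI, 2 of 3 were past 2-fold, against 27.3% of all genes. Sobic.001G344500 was 3.27-fold lower and Sobic.010G072300 2.82-fold lower in SD, and Sobic.001G378300 was 1.37-fold higher. Between SD and B, 0 of 3 were past 2-fold, against 21.8% of all genes. Sobic.010G072300 was 1.85-fold lower in SD, at 441 FPKM against 818 in B, while Sobic.001G344500 was at 119 FPKM in SD against 110 in B and Sobic.001G378300 at 21.9 FPKM in SD against 20.7 in B. The 6 comparisons of stages share columns, so their values are not independent of each other.

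**Figure D3:**
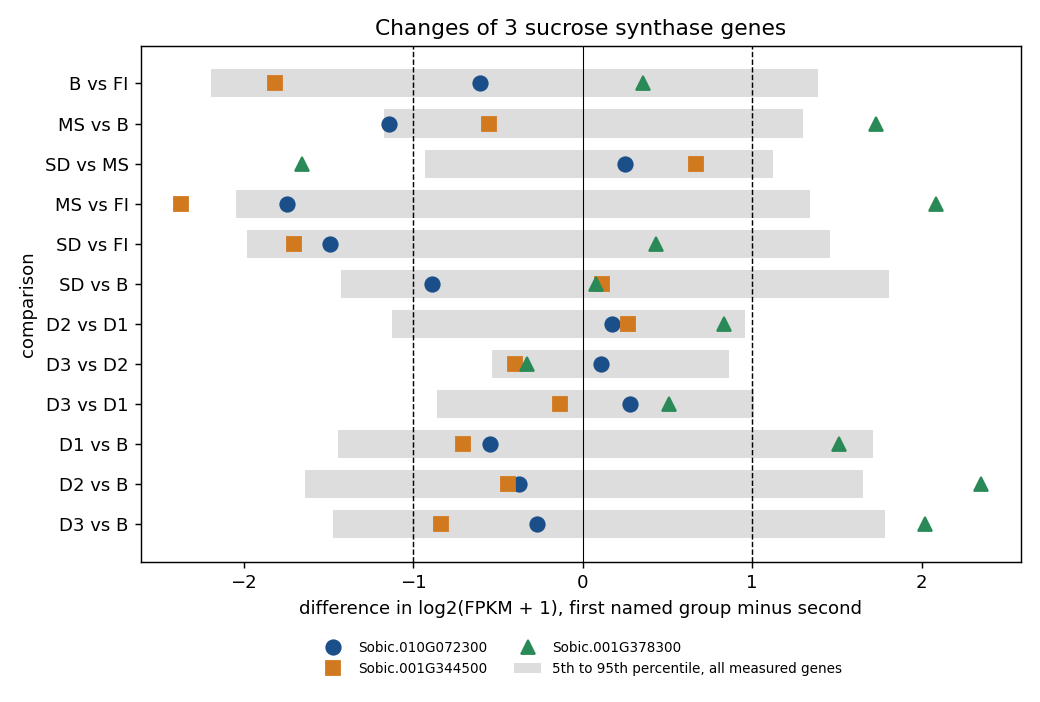
Differences in log2(FPKM + 1) of the 3 expressed sucrose synthase genes in 12 comparisons (first named group minus second); grey bars span the 5th to 95th percentile of all measured genes and dashed lines mark 2-fold. Sobic.001G378300 lies outside the grey bar in 5 comparisons (MS vs B, SD vs MS, MS vs FI, D2 vs B and D3 vs B), and Sobic.001G344500 in 1 (MS vs FI). No gene passes the dashed lines between soil moisture readings.

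Among the soil moisture readings, 0 of the 3 expressed genes were past 2-fold in any of the 3 comparisons. Of all genes, 10.8% were past it between D2 and D1, 4.83% between D3 and D2 and 8.62% between D3 and D1. For 84.7% of measured genes all 3 readings lay within 2-fold of each other, so the sucrose synthases shared this with most of the stem transcriptome. Their widest ranges over the 3 readings were 1.80-fold for Sobic.001G378300, 1.32-fold for Sobic.001G344500 and 1.21-fold for Sobic.010G072300.

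Within those ranges the genes differed in which reading was highest. Sobic.010G072300 was at 679 FPKM in D3, its highest drought value, against 630 in D2 and 559 in D1. Sobic.001G344500 and Sobic.001G378300 were highest in D2, the first of them not when columns were rescaled to the same sum, where it was level with D1. The direction between D2 and D1 depended on the scaling for Sobic.010G072300, whose log2 difference was 0.17 as deposited, -0.19 after quantile normalization and -0.0961 with each column rescaled to the same sum. For Sobic.001G344500 it was 0.27 as deposited and -0.00030 with columns rescaled to the same sum. Sobic.001G378300 kept its sign there under each scaling tried. The rescaling to a common sum moved the median of all genes between D2 and D1 to -0.24, against 0.0035 as deposited.

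Each drought column was also set beside booting in the soil bed. The drought stems were harvested at booting, as described above, while their stage label names only the drought stage. Development and drought values stand in 2 tables with separate locus lists, taken as normalised separately. Pot against bed, watering and table cannot be told apart, and the single booting column enters all 3 comparisons. In each of them 1 of 3 sucrose synthases was past 2-fold, where 22.9% of all genes were for D1, 25.0% for D2 and 24.7% for D3. It was Sobic.001G378300 each time, at 60.9 FPKM in D1, 109 in D2 and 87.0 in D3 against 20.7 in B. These levels were 2.94-fold, 5.29-fold and 4.20-fold higher. A level at least 2-fold above booting in all 3 drought columns was found for 7.63% of 16817 genes matched by name that reached 1 FPKM at booting or in a drought column.

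Sobic.010G072300 and Sobic.001G344500 were lower in the drought columns than at booting, within 2-fold, as 63.9% of genes were in all 3 columns. Sobic.010G072300 was at 559, 630 and 679 FPKM in D1, D2 and D3 against 818 in B, which is 1.46-fold, 1.30-fold and 1.21-fold lower. Sobic.001G344500 was 1.64-fold, 1.36-fold and 1.80-fold lower. Both a milky stage value at least 2-fold above each other stage and drought values at least 2-fold above booting were held by 17 of 16178 matched genes that reached 1 FPKM both in a stage and among booting and the drought columns (0.105%), Sobic.001G378300 among them. This pair of conditions was chosen after the values of Sobic.001G378300 were seen, so the count is a description.

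Other steps of sucrose use were read from lists of identifiers known from published work, with no gene function in the table. The lists were chosen with earlier results of these data known, so their counts below are descriptions. Sucrose phosphate synthases, which make sucrose phosphate, are 5 listed genes. Their summed level was 71.8 FPKM at FI, 133 at B, 133 at MS and 84.3 at SD, and 143, 145 and 146 in D1, D2 and D3. Their sum was thus lowest at the first stage, where that of the sucrose synthases was highest. The sucrose synthase sum was 22.9 times the sucrose phosphate synthase sum at FI, 7.14 times at B, 3.88 times at MS and 6.91 times at SD. In the drought columns it was 4.79, 5.66 and 5.67 times. Both lists are sums of FPKM and say nothing of enzyme activity.

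Of the 5 sucrose phosphate synthases, 1 was past 2-fold between B and FI, 0 between MS and B and 0 between SD and MS, against the 26.8%, 14.2% and 10.7% of all genes. The median log2 differences in these steps were -0.60, -0.55 and 0.25 for the 3 expressed sucrose synthases and 0.64, 0.10 and -0.34 for the sucrose phosphate synthases, where all genes had -0.0047, -0.015 and 0.019. The most abundant sucrose phosphate synthase, Sobic.009G233200, was 2.17-fold higher in B than in FI, at 75.3 against 34.6 FPKM. In the drought columns 1 of 5, Sobic.005G089600, was past 2-fold from booting, at 5.22, 2.94 and 3.41 FPKM in D1, D2 and D3 against 0.522 in B. That count is near the 22.9%, 25.0% and 24.7% of all genes past 2-fold from booting.

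Vacuolar invertase splits sucrose held in the vacuole, and its listed gene Sobic.004G004800 was at 2.32 FPKM at FI, 9.61 at B, 8.79 at MS and 1.95 at SD. In the drought columns it was at 0.603, 0.0343 and 0.689 FPKM. It was below the 3 expressed sucrose synthases in all 7 columns. Its highest stages were B and MS, and in SD it was past 2-fold lower than in B. Between SD and B, 21.8% of all genes and 0 of the 3 expressed sucrose synthases were past 2-fold.

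Cellulose synthases use UDP-glucose, the product of sucrose synthase. The 3 listed genes summed to 663 FPKM at FI, 118 at B, 145 at MS and 374 at SD, and to 56.7, 92.2 and 30.2 in D1, D2 and D3. Their sum shared its high point at FI with the sucrose synthase sum. It was lowest among the stages at B, which rests on 1 gene, Sobic.002G118700, at 82.1 FPKM there against 139 at MS. The other 2, Sobic.001G224300 and Sobic.003G296400, were lowest at MS, at 1.91 and 3.54 FPKM. The sucrose synthase sum was also lowest at MS, but close to its SD value, at 516 against 582 FPKM. Between B and FI, 1 of 3 expressed sucrose synthases and 3 of 3 cellulose synthases were past 2-fold, all lower, against 26.8% of all genes. Between MS and B, 2 of 3 sucrose synthases were past it, 1 higher and 1 lower, and 2 of 3 cellulose synthases, both lower, against 14.2% of all genes. Between SD and MS, 1 of 3 sucrose synthases was past it and lower, and 3 of 3 cellulose synthases were higher, against 10.7% of all genes. The sucrose synthase sum was 2.48 times that of the 3 listed cellulose synthases at FI, 8.01 times at B, 3.57 times at MS and 1.56 times at SD. It was 12.1, 8.90 and 27.3 times in D1, D2 and D3. Any other cellulose synthase genes were not read, and Sobic.002G118700 made up most of the listed sum in every column.

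Sugar carriers complete the listed genes. They are the 6 sucrose transporters SUT1 to SUT6, 2 vacuolar importers (TST1 and TST2) and 2 SWEET exporters, of which 7 reached 1 FPKM. Between B and FI, 1 of 3 sucrose synthases was past 2-fold and lower, against 2 of 7 carriers, both SWEET genes and both higher. Between MS and B, 2 of 3 sucrose synthases were past 2-fold, against 0 of 7 carriers, and between SD and MS 1 of 3 sucrose synthases, against 1 of 7 carriers, both lower. The shares of all genes past 2-fold were 26.8%, 14.2% and 10.7% in these steps, and nothing is read from the carrier counts beside them. Over all 24 listed genes, sucrose synthases included, 8 of 19 measured were past 2-fold between B and FI, 4 of 19 between MS and B and 6 of 19 between SD and MS. Of all genes, 26.8%, 14.2% and 10.7% were past it in these steps. Since the lists were chosen with earlier results known, no excess over these shares is read from the list counts. Among the soil moisture readings, 3 of 18 listed genes were past 2-fold between D2 and D1, all lower and none a sucrose synthase, against 10.8% of all genes. Between D3 and D2, 3 of 18 were past it, 2 higher and 1 lower, against 4.83% of all genes, and between D3 and D1 0 of 18, against 8.62%.

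**Figure D4:**
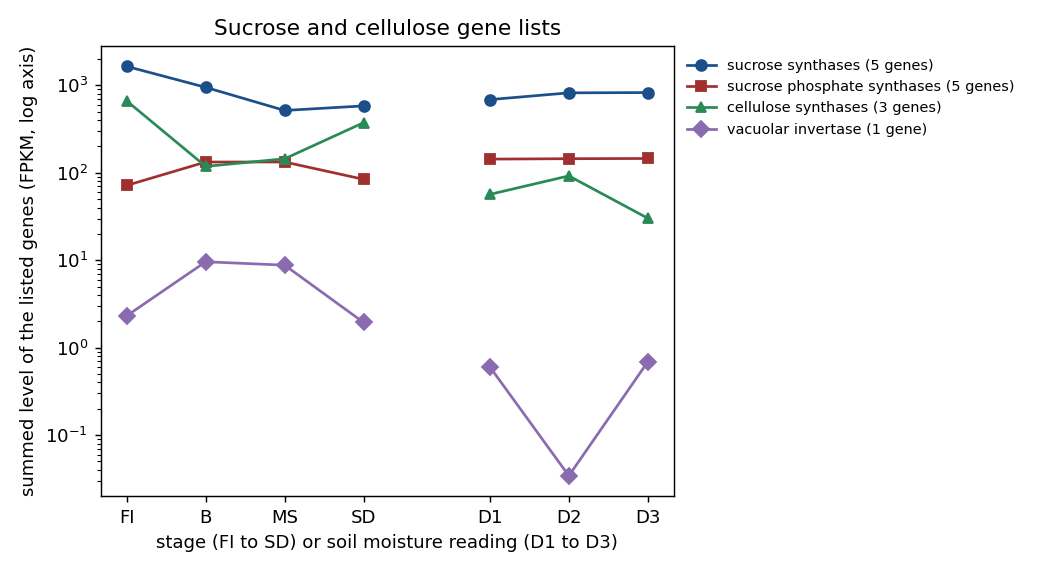
Summed level in FPKM (log axis) of the listed sucrose synthases, sucrose phosphate synthases, cellulose synthases and vacuolar invertase, for stages FI to SD and soil moisture readings D1 to D3. The sucrose synthase sum is the highest throughout, the sucrose phosphate synthase sum stays between 71.8 and 146 FPKM, and vacuolar invertase is under 1 FPKM in the drought columns.

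Likeness of profile was measured by Pearson's r of log2(FPKM + 1) over the 7 columns, a description over few values from 2 tables. Among the sucrose synthases themselves, Sobic.001G344500 and Sobic.010G072300 had r of 0.69, Sobic.001G344500 and Sobic.001G378300 -0.79, and Sobic.001G378300 and Sobic.010G072300 -0.46. Among 7736 genes that reached 10 FPKM and ranged over at least 2-fold, 8 had r of at least 0.95 with Sobic.010G072300, 75 with Sobic.001G344500 and 21 with Sobic.001G378300.

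The gene most like Sobic.010G072300 was Sobic.009G148900 (chromosome 9, 50598970 to 50606905), with r of 0.986. It was at 40.7, 28.2, 9.94 and 12.1 FPKM from FI to SD and at 15.8, 17.9 and 17.4 from D1 to D3. Sobic.009G057200 and Sobic.009G221500 followed, with r of 0.969 and 0.968. The genes most like Sobic.001G344500 were Sobic.004G318400, Sobic.003G151300 and Sobic.002G002100, with r of 0.990, 0.989 and 0.988. Of these, Sobic.003G151300 (chromosome 3, 15946729 to 15951564) had its highest level in FI, 98.3 FPKM, and lay between 14.9 and 36.1 elsewhere.

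The gene most like Sobic.001G378300 was Sobic.004G079700 (chromosome 4, 6544783 to 6550545), with r of 0.991. It was at 16.7, 20.7, 32.6 and 19.2 FPKM from FI to SD and at 28.6, 37.5 and 33.2 from D1 to D3. It was likewise highest at MS among the stages and in D2 among the readings, over a narrower range. Next came Sobic.005G183200 and Sobic.003G084000, with r of 0.984 and 0.975. The table annotates none of these genes.

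The 2 chromosome 1 genes lie 3314924 bases apart, with r of -0.79 as given above. For each expressed gene, the nearer of the neighbours that reached 1 FPKM in a stage was examined. Beyond Sobic.001G344500, Sobic.001G344600 (7789 bases away) was at 22.4, 59.2, 71.4 and 143 FPKM from FI to SD, higher at each stage, while Sobic.001G344500 was highest at FI. Before Sobic.001G378300, Sobic.001G378200 (9354 bases away) stayed between 25.9 and 30.8 FPKM in the stages and had no peak at MS. Beyond Sobic.010G072300, Sobic.010G072400 (4369 bases away) was at 12.3, 17.1, 21.0 and 13.3 FPKM from FI to SD, highest at MS where Sobic.010G072300 was lowest. These 3 neighbours thus had another order of stages than the sucrose synthase beside them.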

How the data were processed

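Per the file headers, the authors deposited FPKM, 1 value per gene and group, in 2 tables side by side. No source used here says how a group's 2 samples entered its value. Per the labels' protocols, the libraries were stranded and made from total RNA. Tools listed, with no roles, in the submitters' processing notes are HISAT2 2.0.5, Bowtie2 2.2.9, cutadapt 1.8.1 and Cuffdiff. Genome build and depth are unknown, and 0 value columns were unused. Some low values recurred in steps between columns, but at most 6.77% of them shared the commonest ratio, so read counts were not recovered.

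Rows without a gene name (2003, all in the development table) were left out of gene counts, ranks and comparisons. They stayed in the column sums and in the rescalings. Tables were matched on names found in each a single time (32028). Genes reaching 1 FPKM in a column counted as measured, with a pseudocount of 1 FPKM. Values per group allow no test. The members and gene lists were chosen with earlier results of these data known. Lists by product name stayed empty, since the RefSeq gene table does not pair its genes with these identifiers. Identifiers of other sugar genes come from published work. Named were the 5 sucrose synthases, the listed sugar genes past 2-fold that are described, and the 3 genes most like each expressed one. List sums, neighbours and profile counts were added. Code was tested on simulated data. Alternatives were pseudocounts, filters and scalings. Software was numpy 2.4.6, pandas 2.3.3 and matplotlib 3.10.9 under Python 3.11.15.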

Additional observations from a re-analysis of the deposited data

How the results depend on the processing

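The 3 expressed sucrose synthases had 36 log2 differences (12 comparisons each), and the family sum 12. All stayed on the same side of 2-fold under pseudocounts of 0.1 and 5, and after quantile normalization or median ratio rescaling. They also did so with columns rescaled to a common sum, a setting chosen after seeing the data. Using no filter, or a minimum mean of 5 FPKM, could not change them, since a filter leaves a gene's own values as they are. Signs changed only among differences within 2-fold. For the family sum these were D2 vs D1, at -0.0647 after quantile normalization and -0.0132 with rescaled sums against 0.26, and D3 vs D2, at -0.018 after median ratio rescaling against 0.011. For Sobic.001G344500, SD vs B was 0 after quantile normalization against 0.11. The share of Sobic.010G072300 moved by under 5 percentage points in all 7 columns after quantile normalization. Median ratio rescaling and rescaling to a common sum multiply a whole column by a single factor, so they could not move a share. A larger pseudocount makes each log2 difference smaller, and the filter removes genes. Counts of all genes past 2-fold, the background of the members, moved by over 1.5 times with the pseudocount and the filter. With a pseudocount of 0.1 they were 3932 for MS vs B, 3212 for SD vs MS, 2728 for D2 vs D1, 1356 for D3 vs D2 and 2265 for D3 vs D1. With 5 they were 2483 for B vs FI, 1221 for MS vs B, 957 for SD vs MS, 2410 for MS vs FI, 2600 for SD vs FI, 2064 for SD vs B, 863 for D2 vs D1, 362 for D3 vs D2, 655 for D3 vs D1, and 1998, 2181 and 2186 for D1, D2 and D3 vs B. With a mean of at least 5 FPKM, which leaves fewer genes, they were 2865 for B vs FI, 1653 for MS vs B, 2805 for MS vs FI, 3077 for SD vs FI, 2605 for SD vs B, 461 for D3 vs D2 and 903 for D3 vs D1. Counts over all listed sugar genes became 3 for SD vs B, 1 for D2 vs D1 and 1 for D3 vs D2 with a pseudocount of 5. They were 5 of 19, 3 of 18 and 3 of 18 with a pseudocount of 1. With a mean of at least 5 FPKM they became 1 for D2 vs D1 and 4, 5 and 4 for D1, D2 and D3 vs B. Against B they were 7, 8 and 7 of 19 with the 1 FPKM filter. For D3 vs D1 the count was 1 after quantile normalization and with rescaled sums, against 0 of 18 as deposited. Shares of all genes at a pseudocount of 1 were 21.8% for SD vs B, 10.8% for D2 vs D1 and 4.83% for D3 vs D2. They were 8.62% for D3 vs D1 and 22.9%, 25.0% and 24.7% for D1, D2 and D3 vs B. Leaving out a replicate was not run, because the table gives no value per sample. No paired analysis was possible because the columns carry no replicate numbers. Depth is unknown, which limits the 2 genes under 1 FPKM.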
